A study of Rattus norvegicus with 18 samples.

Results

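Gene expression in PBMC, the single-nucleus white cells that float on Ficoll when blood is spun, was set side by side in male Wistar rats fed a high-protein diet (HPD) and in others fed a high-fat diet (HFD). The comparison rests on 12 of the 18 arrays of the series, 6 rats per diet, and the 6 rats on a low-fat diet (LFD) serve only as context. Arrays were chosen by their labels: an array belonged to HPD if its source name said so, and to HFD if it carried the HFD labels with replicate numbers 1 to 6. HPD gave 45% of its energy as carbohydrate, 10% as fat and 45% as protein, mainly casein. HFD gave 20% as carbohydrate, 60% as fat (37% of it saturated) and 20% as protein. LFD gave 70%, 10% and 20%, so HPD and HFD differed in all 3 nutrients. Feeding began at an age of 2 months and lasted 4 months, with HPD and HFD portions matched in energy to what LFD rats ate, and blood was taken after a fast of 14 h. Each rat's RNA, labelled with Cy5, shared an array with a Cy3-labelled equimolar pool of the samples, and every value below is a log2 ratio of 1 rat to that pool. One array conflicts with itself: its title calls it HFD replicate 7, while its source name and description say HPD. It was counted as HPD replicate 7, and values without it stand beside part of the results, though other results depend on it too.

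Mononuclear blood cells carry the traffic of the immune system between marrow, lymphoid organs and tissues, and they also use fuels. Fatty acids can act in them through peroxisome proliferator-activated receptors, whose targets move and burn lipid, while amino acids are sensed through the mTOR complex and through the transcription factor ATF4. Monocytes respond to danger signals through NF-kB, which drives cytokine and chemokine genes, while immediate early genes are switched on within minutes by many kinds of stimulus.

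The RNA carried marker genes of PBMC and of other blood cells. Of the marker lists, 23 of 26 T cell genes, 15 of 20 B cell genes, 21 of 24 NK and cytotoxic genes and 21 of 24 monocyte genes had a probe well above background in Cy5 on at least 6 of the 12 arrays. So had 9 of 19 neutrophil, 19 of 23 platelet and 29 of 36 erythroid genes, which belong to cells that a gradient is meant to leave behind. The array held probes for 23 T cell, 15 B cell, 22 NK and cytotoxic, 23 monocyte, 17 neutrophil, 21 platelet and 33 erythroid genes. Over the whole array, 23858 of 41012 probes passed the same filter. In such bulk samples, fewer cells of a type and less RNA per cell cannot be told apart. The share of probes well above background averaged 57.2% on HPD arrays and 59.5% on HFD arrays (two-sided exact permutation test, p = 0.0758). The median log2 ratio of an array averaged 0.04 in HPD and 0.01 in HFD (p = 0.0195 by the same exact test, where the smallest possible p is 0.00216), so the HPD arrays sat slightly higher as a whole. The median absolute log2 ratio averaged 0.23 in HPD and 0.21 in HFD (same exact test, p = 0.188). These p-values were not adjusted for the number of tests, and the diets were spread unevenly over the array slides.

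No gene passed the test between the diets. Of 20337 genes tested, limma called 0 at a Benjamini-Hochberg adjusted p under 0.05, which is 0% of them, and the lowest adjusted p was 0.673. At an unadjusted p under 0.05 there were 1213 genes (5.96%), 763 with a higher mean in HPD (3.75%) and 450 with a lower one (2.21%). That is 62.9% higher, and the split depended on scaling: it was 48.1% or 50.1% higher after normexp background correction with loess, 52.1% after centring and scaling the arrays, and 81.7% in the authors' deposited table of log2 values. The number expected by chance at that level is 1016.85 genes. The diets did not overlap (all 6 HPD values on one side of all 6 HFD values) for 48 genes (0.236%), 33 of them higher in HPD (0.162%) and 15 lower (0.0738%). Over all genes 54.9% of the differences were above 0 and 45.1% below, and their median was 0.02 on the log2 scale with a median standard error of 0.16. Since no gene was called, the genes below are described by their values, each difference being HPD minus HFD on the log2 scale ± its standard error. Genes are named for the smallest p and the largest differences, for their place in a gene list, or from a panel of 32 diet-related genes, and all of them had a limma adjusted p between 0.673 and 0.999. Sizes depended on the background correction. After normexp with an offset of 50 and loess, 46 of the 107 genes tested and named here had a difference over 1.5 times smaller, among them 15 of the 20 with the smallest p.

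**Figure D1:**
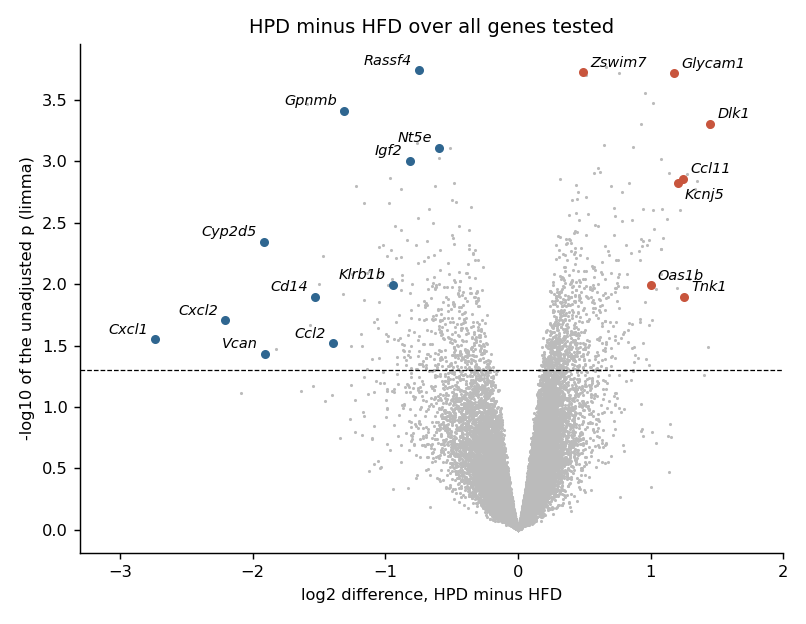
Each point is 1 of the 20337 genes tested, with the log2 difference HPD minus HFD on the x axis and -log10 of the unadjusted limma p on the y axis. The dashed line marks an unadjusted p of 0.05, coloured points are the labelled genes with higher (red) or lower (blue) means in HPD, and no gene had an adjusted p under 0.05.

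The diets were also mixed in the main axes of variation. The first principal component of the 12 arrays held 23.6% of the variance and the second 18.4%, and HPD and HFD arrays lay among each other on both. The median correlation between arrays was 0.18 within HPD, 0.08 within HFD and 0.17 between the diets. The highest correlation was that of HFD replicates 1 and 6, hybridised on slides 1 and 3 (r = 0.66 over all genes), followed by HPD replicate 3 and HFD replicate 2 (r = 0.56). The 4-array slides split the diets unevenly. HPD and HFD shared slide 2, with 3 HPD arrays and 1 HFD array, and slide 3, with 1 HPD array and 2 HFD arrays. Slides 1 and 5 held HFD but no HPD arrays, and slide 4 held HPD but no HFD arrays.

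**Figure D2:**
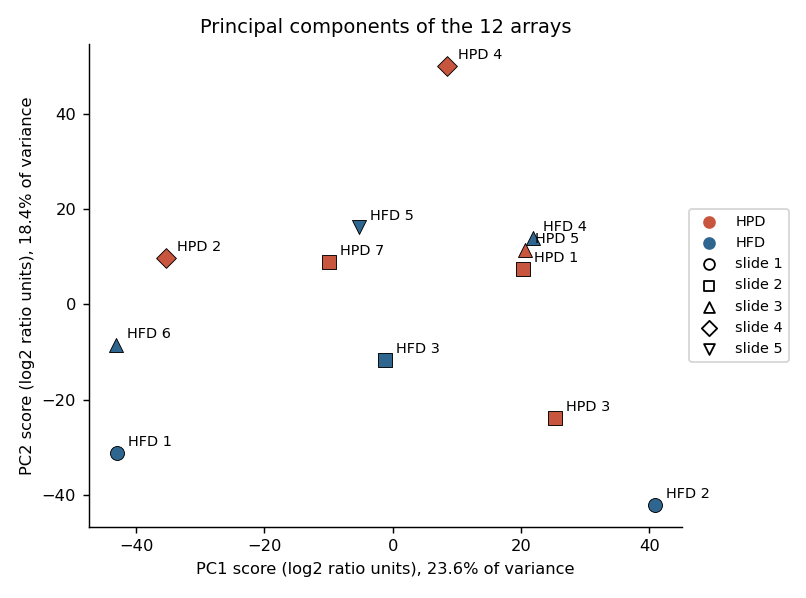
Scores of the 12 arrays on the first and second principal components of the log2 ratios, in log2 ratio units. Colour marks the diet and symbol the slide: HPD and HFD arrays overlap on the first component, and HFD 1 and HFD 6 lie close together at its low end.

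The genes with the smallest p-values and higher means in HPD included several that are better known outside blood. Glycam1 encodes a mucin that lymph node vessels display to L-selectin on lymphocytes. Glycam1 ranged from 0.59 to 1.23 with a median of 0.72 in HPD rats, against -1.05 to 0.24 with a median of -0.42 in HFD rats, and its probe lies at chr7:142455707-142455766 on rn4. All 6 HPD rats stood above all 6 HFD rats, and 5 of the 6 HPD values lay close together with replicate 4 above them. The log2 difference was 1.18 ± 0.23 (SE), a 2.26-fold ratio (limma, adjusted p = 0.673), and 1.19 without HPD replicate 7. It was 0.41 after normexp and 0.60 in the authors' deposited table. It was 1.76 within slide 2 and 0.65 within slide 3.

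Dlk1 (probe at chr6:134028313-134028372, rn4), a Notch-family protein that restrains the maturation of fat cells, showed the same separation. Its log2 ratio ranged from -0.02 to 1.18 with a median of 0.63 in HPD rats, against -1.74 to -0.16 with a median of -0.53 in HFD rats. HFD replicates 2 and 3 were the lowest, and HPD replicate 1 came nearest to the HFD rats without reaching them. The difference was 1.45 ± 0.31 (limma, adjusted p = 0.762), or 2.73-fold, 1.35 without HPD replicate 7 and 0.85 after normexp. Ccl11 encodes eotaxin, which attracts eosinophils. Ccl11 ranged from 0.29 to 1.14 with a median of 0.69 in HPD rats, against -1.40 to 0.75 with a median of -0.65 in HFD rats. The groups overlapped through HFD replicate 5 alone, which stood among the HPD rats, and the difference was 1.25 ± 0.31, or 0.55 after normexp. HFD replicates 2 and 3 were the lowest HFD rats for all 3 genes. LFD rats lay on the HFD side in their medians, with -0.60 for Glycam1, -1.21 for Dlk1 and -1.02 for Ccl11.

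Among the other genes with the 10 smallest p-values in this direction, Kcnj5, a subunit of an inwardly rectifying potassium channel, stood at 1.21 ± 0.30 and Ltk, a receptor tyrosine kinase, at 0.78 ± 0.20 (0.14 after normexp). Both overlapped between the diets by a few rats. Zswim7, which takes part in repair by homologous recombination, had a small but even difference. Its values ranged from 0.19 to 0.47 with a median of 0.35 in HPD rats, against -0.39 to 0.07 with a median of -0.13 in HFD rats, a difference of 0.49 ± 0.09. No rat crossed to the other side. The zinc importer gene Slc39a1 (0.62 ± 0.15, or 0.12 after normexp) also had no overlap, and HFD replicate 3 was far below the others. Tcea2, an elongation factor of RNA polymerase, stood at 0.60 ± 0.14 and Tmem218 at 0.58 ± 0.14. Cyp4v3, a fatty acid hydroxylase, stood at 0.86 ± 0.20 by its brighter probe and at -0.12 by its second one, so its probes disagree. Tnk1, a kinase gene, had one of the 5 largest differences (1.25 ± 0.43), but HFD replicates 2 and 6 lay inside the HPD range, and it was well above background on 6 HPD and 4 HFD arrays and stood at 0.24 after normexp.

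Among the genes with lower means in HPD, Rassf4, a Ras-association adaptor (probe at chr4:152988803-152989975, rn4), had the smallest p of all named genes. Its log2 ratio ranged from -0.99 to -0.18 with a median of -0.69 in HPD rats, against -0.09 to 0.26 with a median of 0.10 in HFD rats. Every HPD rat lay below every HFD rat, and the HFD rats lay close together. The difference was -0.74 ± 0.14 (limma, adjusted p = 0.673), -0.69 without HPD replicate 7, -0.85 within slide 2, -0.52 within slide 3 and -0.30 after normexp. Gpnmb (probe at chr4:77182198-77182257, rn4) encodes a membrane glycoprotein of macrophages and dendritic cells. Gpnmb ranged from -1.47 to 0.52 with a median of -0.73 in HPD rats, against 0.39 to 1.01 with a median of 0.65 in HFD rats. Of the HPD rats 5 lay below all HFD rats, while replicate 3 stood within the HFD range. The difference was -1.31 ± 0.27 (limma, adjusted p = 0.715), which is 2.48-fold lower in HPD, and -0.96 within each shared slide. It was -0.48 after normexp and -0.73 in the authors' deposited table.

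Nt5e encodes CD73, the surface enzyme that turns AMP into adenosine. Nt5e ranged from -0.77 to -0.01 with a median of -0.27 in HPD rats, against 0.06 to 0.46 with a median of 0.33 in HFD rats. The ranges touched nowhere, although HPD replicate 3 and HFD replicate 1 came close, and the difference was -0.59 ± 0.13, or -0.32 after normexp. Igf2, an insulin-like growth factor, had HPD values between -0.97 and -0.36, against -0.46 to 0.71 in HFD rats. HFD replicate 5 reached into the HPD range and replicate 4 came to its edge, and the difference was -0.82 ± 0.19. LFD rats lay nearer to HPD for Igf2, with a median of -0.49, and nearer to HFD for Gpnmb (0.35) and Nt5e (0.12). Rxrg, a retinoid X receptor that pairs with nuclear receptors of lipids, stood at -0.88 ± 0.25 (-0.26 after normexp), and HPD replicate 2 alone lay among the HFD rats. The RNA-binding protein gene Rbms1 stood at -0.47 ± 0.12, the CREB-like factor Crebl2 at -0.50 ± 0.14 (-0.25 by its other probe), the Mediator subunit Med13l at -0.44 ± 0.12, the phosphatase subunit Ppp6r3 at -0.37 ± 0.10 and Lypd8l1 (LOC24906 in the files) at -0.75 ± 0.20. For the 20 genes with the smallest p, 10 in each direction, the sign of the difference was the same within slide 2, within slide 3 and with slide as a block in 20 of 20. These arrays also entered the choice of the genes, so this is a description.

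**Figure D3:**
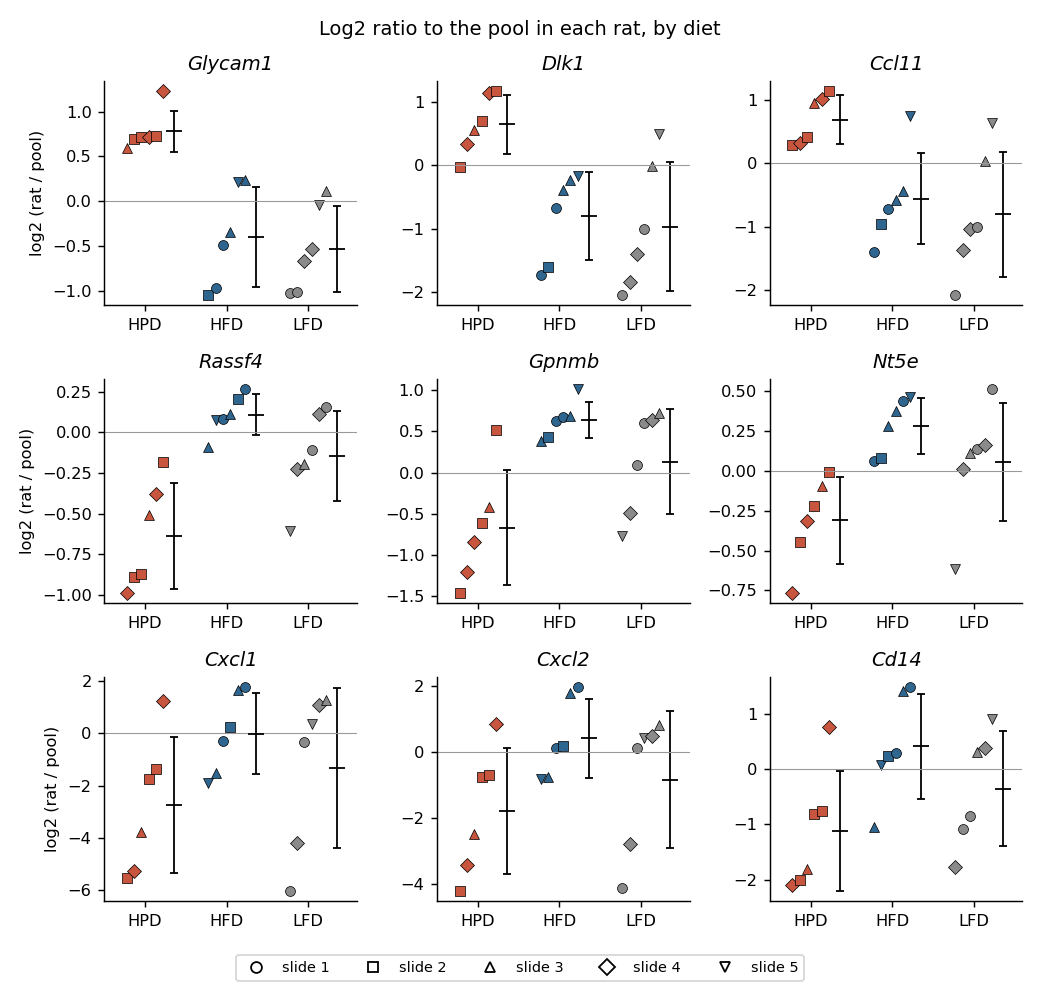
Log2 ratio of each rat to the pool (y axis) for 9 genes, with HPD, HFD and LFD rats side by side (x axis), symbols for the slide, and bars for the mean ± SD of the 6 rats. Glycam1, Dlk1, Rassf4 and Nt5e show no overlap between HPD and HFD, while the chemokine genes Cxcl1 and Cxcl2 spread widely within each diet.

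Among named genes at an unadjusted p under 0.05, the 2 neutrophil-attracting chemokine genes Cxcl1 and Cxcl2, classical targets of NF-kB, had the largest differences in size, although that of Cxcl1 was smaller than those of Cxcl2, Rpl6-ps11 and Cd14 after normexp. Their genes neighbour each other, and the stretch around the start of each (250 bases before to 50 after, RefSeq, GRCr8, minus strand, chr14:17479272-17479571 and chr14:17467206-17467505) is shown because the pair had the same high and low rats. Capitals mark each match to GGNNTTTCC, a form of the NF-kB site, or to its reverse complement.
Cxcl1: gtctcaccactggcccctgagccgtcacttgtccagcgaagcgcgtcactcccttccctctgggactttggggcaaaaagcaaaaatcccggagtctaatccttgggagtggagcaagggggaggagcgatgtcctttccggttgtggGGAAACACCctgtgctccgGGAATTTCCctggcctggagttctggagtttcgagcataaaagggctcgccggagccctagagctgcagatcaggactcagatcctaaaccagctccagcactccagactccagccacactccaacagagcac
Cxcl2: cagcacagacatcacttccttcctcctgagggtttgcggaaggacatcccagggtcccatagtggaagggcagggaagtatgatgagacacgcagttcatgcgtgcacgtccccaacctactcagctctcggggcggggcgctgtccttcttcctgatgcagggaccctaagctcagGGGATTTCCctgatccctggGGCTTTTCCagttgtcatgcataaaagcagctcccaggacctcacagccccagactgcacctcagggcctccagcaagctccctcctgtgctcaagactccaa
The motif, searched on both strands, occurred in 6.03% of 27457 promoters of the same length and in 10 of the 23 promoters found for the measured genes of the NF-kB list. Ccl2 and Myd88, the list's other genes at an unadjusted p under 0.05, were not among these 10. A match is a description of the letters only.

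Cxcl2 ranged from -4.23 to 0.87 with a median of -1.63 in HPD rats, against -0.81 to 1.98 with a median of 0.16 in HFD rats. HPD replicates 4, 5 and 7 were far below the rest, HPD replicate 2 stood above 4 of the HFD rats, and HFD replicates 1 and 6 were the highest. The difference was -2.21 ± 0.83 (limma, adjusted p = 0.826), 4.62-fold lower in HPD, and -1.72 without HPD replicate 7. Cxcl1 ranged from -5.54 to 1.23 with a median of -2.77 in HPD rats, against -1.89 to 1.77 with a median of -0.04 in HFD rats. The same rats were low and high, and the probe was well above background on 3 of 6 HPD and 6 of 6 HFD arrays. Its difference was -2.74 ± 1.1, -2.18 without HPD replicate 7 and -0.91 after normexp, where Cxcl2 stood at -1.85. Ccl2, which attracts monocytes, stood at -1.39 ± 0.57. HPD replicate 7 was lowest at -3.26, HFD replicate 4 was far below the other HFD rats at -1.34, and counting HPD replicate 7 as HFD, as its title says, gave -0.53. Il1b, the fever cytokine interleukin-1 beta, stood at -0.61 ± 0.29.

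Over the whole NF-kB list, 23 of 29 measured genes had a lower mean in HPD (45.1% over all genes) and 4 of them an unadjusted p under 0.05 (2.21% over all genes), namely Cxcl2, Cxcl1, Ccl2 and the adaptor gene Myd88. The median difference was -0.17, and the list's median per rat ranged from -0.41 to 0.32 in HPD rats and -0.25 to 0.26 in HFD rats. The median difference was -0.17 without HPD replicate 7, -0.10 with it counted as HFD, -0.09 in the authors' deposited table and -0.30 with slide as a block. Monocyte markers leaned the same way. Of the 21 measured, 21 had a lower mean in HPD (Tlr4 at only -0.01), 2 at an unadjusted p under 0.05, with a median difference of -0.36. Cd14, the co-receptor for bacterial lipopolysaccharide, ranged from -2.09 to 0.75 with a median of -1.31 in HPD rats, against -1.05 to 1.48 with a median of 0.26 in HFD rats. HPD replicate 2 was high and HFD replicate 4 low against their groups, and the difference was -1.53 ± 0.53, or -1.35 without HPD replicate 7, with a dimmer second probe at -2.01. The proteoglycan gene Vcan stood at -1.91 ± 0.82, but it was well above background on 2 HPD and 5 HFD arrays only, and the difference was 0.96 within slide 2 and -0.40 after normexp. Lysozyme, Lyz2, stood at -0.83 ± 0.41.

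The median of the monocyte list per rat ranged from -1.42 to 0.32 in HPD rats and -0.36 to 0.78 in HFD rats, and HPD replicate 4 was the lowest. The diets thus overlapped. Within slide 2 the list's median difference was 0.14, above 0, and within slide 3 it was -0.40. With slide as a block it was -0.11, and without HPD replicate 7 it was -0.40. The filter itself required each measured marker to be well above background on at least 6 of the 12 arrays, so that says nothing more about their signal. The part of monocyte content in the chemokine values was not tested. Tlr4, the receptor that works with CD14, stood at -0.01 ± 0.34 and kept its sign in 6 of the 12 fits with 1 array left out. Cd36, a scavenger receptor of monocytes and a fatty acid carrier, stood at -0.34 ± 0.29.

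Genes of natural killer and cytotoxic cells had lower values in HPD as well. Of 21 measured, 18 had a lower mean (45.1% over all genes) and 4 an unadjusted p under 0.05 (2.21% over all genes), with a median difference of -0.26. The inhibitory receptor gene Klrb1b stood at -0.94 ± 0.31, granzyme K, Gzmk, at -0.43 ± 0.17 and the activating receptor Ncr1 at -0.77 ± 0.35, or 0.01 within slide 3. Klrb1b values ranged from -1.54 to 0.32 with a median of -0.54 in HPD rats, against -0.46 to 0.65 with a median of 0.40 in HFD rats. HPD replicates 2 and 4 were the lowest and HPD replicate 7 stood with the HFD rats. The median over the list per rat ranged from -0.54 to 0.29 in HPD rats and -0.30 to 0.31 in HFD rats, and it was -0.10 and -0.11 as a difference within slides 2 and 3. Of dendritic cell genes, 8 of 10 had a lower mean, 2 at an unadjusted p under 0.05, among them Irf8, a lineage factor (-0.57 ± 0.22), and Siglech of plasmacytoid cells (-0.48 ± 0.20, or -0.14 after normexp).

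B cell genes stood near 0, while T cell genes leaned slightly higher in HPD by the median of their differences, but hardly by the rats' own medians. The T cell list's median per rat ranged from -0.19 to 0.27 in HPD rats and -0.44 to 0.09 in HFD rats, so the diets overlapped. Its middle was -0.02 for HPD rats and -0.04 for HFD rats, with 3 HPD rats above the latter and 3 below. Of 23 T cell genes 16 had a higher mean in HPD (54.9% over all genes) and none an unadjusted p under 0.05 by limma, with a median difference of 0.10, or -0.04 within slide 2. The co-receptor gene Cd8b stood at 0.38 ± 0.21 and the receptor chain Cd3d at 0.15 ± 0.13. Lag3, an inhibitory receptor of T cells, stood at 0.22 ± 0.11. Of 15 B cell genes 10 had a higher mean, with a median of 0.01. The B cell median per rat went the other way, at -0.14 for the middle of the HPD rats and -0.01 for that of the HFD rats. Of 7 plasma cell genes, Prdm1 (-0.59 ± 0.22), a repressor that drives plasma cell formation and also acts in T cells and monocytes, and Sdc1 (-0.46 ± 0.18, but 0.16 within slide 3) were lower at an unadjusted p under 0.05. Over all genes 2.21% were lower at that level. Of the 7 plasma cell genes, 4 had a higher and 3 a lower mean, and the list's median was 0.00. Neutrophil genes had a median of 0.08 over 9 genes, which turned to -0.12 without HPD replicate 7 and -0.03 after another background correction (normexp). Those of basophils, mast cells and eosinophils had a median of 0.05 over 6, which turned to -0.04 without HPD replicate 7 and -0.05 after normexp. The median per rat also went the other way for these lists. For neutrophils its middle was -0.05 in HPD and 0.00 in HFD rats, and for basophils, mast cells and eosinophils -0.05 and 0.02.

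Red cell and platelet transcripts, which report other blood elements in the preparation, had lower means in HPD. Of 29 erythroid genes, 24 had a lower mean (45.1% over all genes), 2 of them at an unadjusted p under 0.05 (2.21%), and 1 a higher one at that level (3.75%). The median difference was -0.38, -0.36 without HPD replicate 7, -0.22 after normexp and -0.16 without slide 1. The haem synthesis genes Fech (-0.81 ± 0.35) and Ppox (-0.46 ± 0.16) had lower means, and Uros, of the same pathway, stood at 0.43 ± 0.19, but at -0.38 within slide 3 and 0.12 after normexp. The list's median per rat ranged from -0.82 to 0.00 in HPD rats and -1.04 to 0.40 in HFD rats. The lowest rat was an HFD rat, so the diets overlapped. Of 19 platelet genes 18 had a lower mean and none an unadjusted p under 0.05 by limma. Their median difference was -0.27, and -0.43 with slide as a block. F13a1, a clotting factor subunit of platelets and monocytes, stood at -0.65 ± 0.45. The platelet median per rat ranged from -1.32 to -0.01 in HPD rats and -1.96 to 0.80 in HFD rats, so both extremes of the 12 rats were HFD rats.

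Immediate early genes, many of which encode transcription factors of the AP-1 family, mostly had lower means in HPD. Of 26 measured, 22 had a lower mean (45.1% over all genes), 3 of them at an unadjusted p under 0.05 (2.21% over all genes). Fosb was the 1 gene with a higher mean at that level (0.27 ± 0.12), against 3.75% over all genes. The median difference was -0.30, or -0.14 without HPD replicate 7 and -0.03 with it counted as HFD. Fosl2, an AP-1 subunit, stood at -0.48 ± 0.18. Dusp1, a phosphatase that switches off MAP kinases, and Ier2 carry the cAMP response element TGACGTCA near their starts. Their promoters (RefSeq, GRCr8, chr10:17184603-17184902 on the plus strand and chr19:40399123-40399422 on the plus strand) are shown with it in capitals. They were chosen as the genes of this list at an unadjusted p under 0.05 in which the element was found. Fosl2 and Fosb, also under 0.05, were not among the genes found to carry it.
Dusp1: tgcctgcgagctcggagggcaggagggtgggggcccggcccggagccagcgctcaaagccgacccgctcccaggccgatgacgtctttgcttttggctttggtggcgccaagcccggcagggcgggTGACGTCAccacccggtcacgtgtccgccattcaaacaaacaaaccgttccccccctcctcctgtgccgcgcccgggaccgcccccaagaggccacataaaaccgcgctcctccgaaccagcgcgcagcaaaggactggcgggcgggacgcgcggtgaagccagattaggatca
Ier2: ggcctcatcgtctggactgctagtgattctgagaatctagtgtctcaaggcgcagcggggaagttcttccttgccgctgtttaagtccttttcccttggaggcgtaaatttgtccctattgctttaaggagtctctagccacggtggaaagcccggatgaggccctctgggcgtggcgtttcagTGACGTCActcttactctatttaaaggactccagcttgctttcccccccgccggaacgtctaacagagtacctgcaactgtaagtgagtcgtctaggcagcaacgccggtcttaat
The element, which reads the same on both strands, occurred in 1.91% of 27457 promoters and in 4 of the 16 found for this list.

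Dusp1 ranged from -1.18 to 0.26 with a median of -0.47 in HPD rats, against -0.71 to 1.06 with a median of 0.37 in HFD rats. HPD replicates 4, 5 and 7 were the lowest of their diet, as for the chemokines, and HFD replicate 5 reached as low as HPD replicate 5. The difference was -0.73 ± 0.33, or -0.59 without HPD replicate 7. Ier2 ranged from -0.76 to 0.30 with a median of -0.29 in HPD rats, against -0.41 to 0.49 with a median of 0.31 in HFD rats, a difference of -0.47 ± 0.20. Atf3, a stress factor, stood at -0.78 ± 0.38, with HFD replicates 1 and 6 highest. The list's median per rat ranged from -0.57 to 0.34 in HPD rats and -0.22 to 0.24 in HFD rats, and HPD replicate 2 had the highest median of the 12 rats. Targets of glucocorticoids had lower means for 11 of 14 genes (45.1% over all genes), with a median of -0.23, which was -0.15 without HPD replicate 7 and -0.06 with it counted as HFD. Dusp1 is also one of them, and Ddit4, an mTOR inhibitor, stood at -0.43 ± 0.28. Of 15 circadian clock genes 10 had a lower mean and none an unadjusted p under 0.05 by limma, and Bhlhe40 (-0.44 ± 0.20) and Nfil3 (-0.45 ± 0.24) had the smallest p-values. The clock list's median was -0.10, 0.05 in the authors' deposited table of log2 values, and -0.44 with slide as a block. Its median per rat went the other way, at -0.02 for the middle of the HPD rats and -0.08 for that of the HFD rats, and 5 HPD rats lay above the latter. The hour of blood sampling is not given in the labels.

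**Figure D4:**
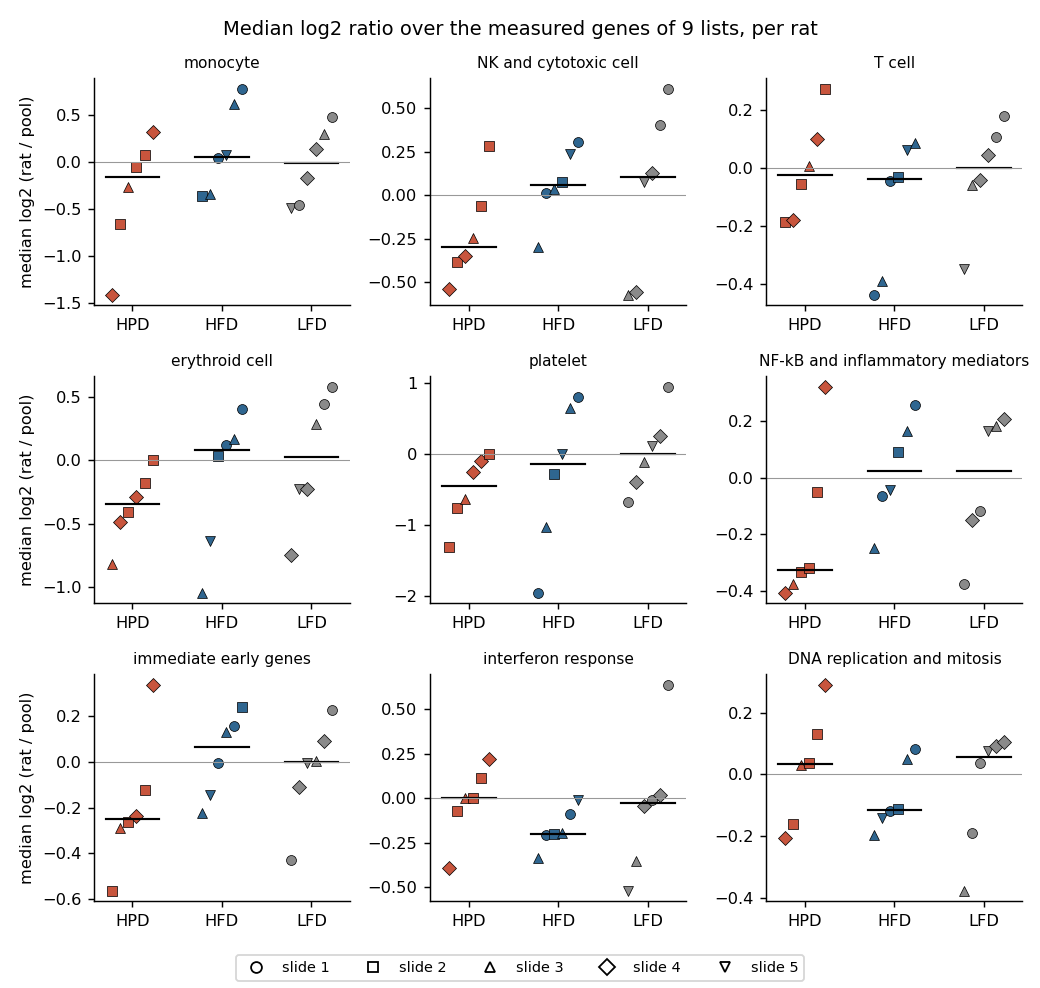
Median log2 ratio over the measured genes of 9 lists in each rat (y axis), with HPD, HFD and LFD rats side by side (x axis), symbols for the slide and a line for the median over the 6 rats. HPD and HFD overlap in all 9 lists, and the line is lower in HPD for the monocyte, NK, erythroid, platelet, NF-kB and immediate early lists.

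Interferon-response genes leaned the other way. Of 36 measured, 23 had a higher mean in HPD (54.9% over all genes) and 4 of these an unadjusted p under 0.05 (3.75% over all genes), with none lower at that level. The median difference was 0.09, 0.16 within slide 2 and 0.22 within slide 3. Isg20, an antiviral exonuclease, ranged from -0.06 to 0.25 with a median of 0.07 in HPD rats, against -0.30 to -0.07 with a median of -0.22 in HFD rats. The ranges did not overlap, though their edges lay close, and the difference was 0.29 ± 0.08. Ifi35 stood at 0.26 ± 0.09. Oas1b, a sensor of double-stranded RNA, ranged from -0.91 to 0.91 with a median of 0.31 in HPD rats, against -1.65 to 0.14 with a median of -0.75 in HFD rats. HPD replicate 4 lay with the low HFD rats, and the difference was 1.00 ± 0.33, or 0.29 after normexp. The list's median per rat ranged from -0.39 to 0.22 in HPD rats and -0.33 to -0.01 in HFD rats.

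Cell cycle genes had a higher mean in HPD for 24 of 33 (54.9% over all genes). At an unadjusted p under 0.05 were 3 of them (3.75% over all genes): Ccne1, the cyclin of entry into S phase (0.32 ± 0.11, or 0.14 by its other probe), Cdc20, an activator of mitotic exit (0.22 ± 0.09), and Cdkn3 (0.42 ± 0.18). The median was 0.11. Of 57 cytosolic ribosomal protein genes 47 had a higher mean, by little, with a median of 0.07, and none an unadjusted p under 0.05 by limma. The smallest p-values were those of Rps3 (0.22 ± 0.11) and Rpl37 (0.27 ± 0.13). Centring and scaling the arrays gave a ribosomal median of 0.03, against 0.32 in the authors' deposited table of log2 values. Antigen presentation stood near 0, at 0.06 for class I, where the peptide editor Tapbpl stood at 0.32 ± 0.14 but at -0.31 within slide 3, and at -0.02 for class II, where the class II regulator Rfxap stood at -0.32 ± 0.15.

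Fat gave 10% of the energy of HPD and 60% of that of HFD, so genes of fat use were read as a group. Cpt1a, the gate for fatty acids into mitochondria and a PPAR target, ranged from -0.43 to 0.29 with a median of -0.21 in HPD rats, against -0.06 to 0.35 with a median of 0.15 in HFD rats. HPD replicate 1 stood among the highest HFD rats, the other HPD rats lay below all HFD rats, and LFD rats had a median of -0.18. The difference was -0.32 ± 0.13, -0.13 within slide 2 and -0.58 within slide 3. Acaa2, the last enzyme of the mitochondrial spiral, stood at -0.32 ± 0.15. Of 30 fatty acid oxidation genes 20 had a higher mean in HPD (54.9% over all genes), and the median was 0.03. Cpt1a and Acaa2, both lower, were the 2 at an unadjusted p under 0.05 (2.21% lower at that level over all genes). Acadm stood at -0.11 ± 0.13 and the uncoupling protein gene Ucp2 at -0.06 ± 0.08.

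Genes that store and export lipid leaned lower in HPD: 14 of 17, 3 at an unadjusted p under 0.05, with a median of -0.27 (over all genes 45.1% were lower and 2.21% lower at that level). The median was -0.10 after normexp, -0.14 without slide 1 and -0.10 within slide 2. Abca1, which exports cholesterol to HDL, ranged from -1.11 to 0.29 with a median of -0.27 in HPD rats, against -0.07 to 0.45 with a median of 0.09 in HFD rats. HPD replicates 1 and 5 were the lowest, HPD replicate 7 lay within the HFD range, and the difference was -0.50 ± 0.20, -0.63 without that array and -0.20 after normexp. Npc2, a carrier of cholesterol in lysosomes, stood at -0.31 ± 0.11, the lipid droplet protein gene Cidea at -0.84 ± 0.38 (-0.15 after normexp) and Plin2, which coats droplets, at -0.32 ± 0.23 (0.04 within slide 2). Every rat lay above the pool for Cidea, with means of 1.97 in HPD, 2.81 in HFD and 2.17 in LFD. A pool of the same samples should not lie below all of them, so the ratios of this probe are in doubt. Abca1, Plin2 and Cd36 are also expressed by monocytes. Of 17 PPAR receptors and targets 12 had a lower mean, 2 at an unadjusted p under 0.05 (Cpt1a and Abca1), with a median of -0.08. Ppard stood at 0.19 ± 0.36, or -0.71 within slide 3. Slc27a2, a fatty acid transporter, lay at far-apart levels in both diets, with -4.47 in HPD replicate 7 and -4.55 and -5.19 in HFD replicates 2 and 5. The other 9 rats had -0.82 or more, and its difference was 0.77 ± 1.21, 1.53 without HPD replicate 7 and -1.49 within slide 2.

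Lipid synthesis had no common direction. The median was 0.00 over 23 cholesterol genes, 11 of them lower, and 0.00 over 20 fatty acid and triglyceride synthesis genes, 10 lower (45.1% over all genes). Srebf2, the master factor of cholesterol synthesis, stood at -0.30 ± 0.14, and Insig1, one of its targets, at -0.18 ± 0.17 by its brightest probe. Other probes gave -0.17 for Srebf2 and -0.40, -0.34 and -0.45 for Insig1. Agpat2, an enzyme of triglyceride assembly, stood at -0.39 ± 0.15. Fasn stood at 0.10 ± 0.11, Scd at -0.12 ± 0.20 and Srebf1 at 0.08 ± 0.09. Other probes gave 0.11 for Fasn, and 0.12 and 0.40 for Srebf1, the last well above background on 8 arrays. By the probes used, the p-values of Fasn, Scd and Srebf1 were far above 0.05, which does not show that these genes were alike in both diets. Standard errors of 0.09 to 0.20 set the precision of each difference for the probe used only.

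HPD gave 45% of its energy as protein and HFD 20%, and the amino acid pathways were read for that reason. Slc7a1, the carrier of arginine and lysine, ranged from -0.03 to 0.38 with a median of 0.22 in HPD rats, against -0.50 to 0.10 with a median of -0.28 in HFD rats. Of the HPD rats, replicate 3 alone lay below HFD replicates 4 and 5, and the difference was 0.42 ± 0.12 (0.26 by its other probe), 0.52 within slide 2 and 0.41 within slide 3. It was the 1 gene of 27 in the ATF4 list at an unadjusted p under 0.05 (5.96% over all genes). The list's median was -0.01, and Atf4 itself stood at -0.15 ± 0.13 (0.01 in the authors' deposited table), Asns, an asparagine synthetase, at -0.07 ± 0.13, Sesn2 at -0.03 ± 0.11, Slc7a5, the leucine carrier, at 0.05 ± 0.21 and Ddit3 at -0.01 ± 0.28. Among 34 genes of amino acid and urea catabolism 17 were higher and 17 lower (54.9% and 45.1% over all genes), with a median of 0.00. Sds, which breaks down serine, was the 1 gene at an unadjusted p under 0.05 (0.30 ± 0.13). Glud1, glutamate dehydrogenase, stood at -0.16 ± 0.07, Bcat1 at -0.20 ± 0.29, Bckdk at 0.07 ± 0.12, Glul at -0.12 ± 0.14 and Arg1 at -0.27 ± 0.40. Other probes gave -0.34 and -0.37 for Glud1 and -0.45 for Glul, and Arg1 was above 0 within slides 2 (0.63) and 3 (0.21).

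Insulin and mTOR signalling genes had a lower mean in HPD for 21 of 27, with a median of -0.14. Over all genes 45.1% were lower, and 2.21% lower at an unadjusted p under 0.05. The insulin and mTOR list's median per rat ranged from -0.25 to -0.06 in HPD rats and -0.13 to -0.01 in HFD rats, so the diets overlapped. Mtor itself was the 1 gene of this list at an unadjusted p under 0.05 (-0.26 ± 0.10), and the adiponectin receptor gene Adipor1 stood at -0.25 ± 0.12. Chaperones of the endoplasmic reticulum had a lower mean for 22 of 23 with a small median of -0.08, led by Dnajc3 (-0.29 ± 0.12) and Dnajb11 (-0.30 ± 0.14). Heat shock proteins had a lower mean for 18 of 20 (median -0.08, or 0.04 in the authors' deposited table) and NRF2 antioxidant genes for 19 of 25 (median -0.08), with none at an unadjusted p under 0.05 by limma in either list. The heat shock list's median per rat did not differ, at -0.05 for the middle of the HPD rats and -0.05 for that of the HFD rats. Energy metabolism stood near 0, with medians of -0.03 for glycolysis, 0.02 for the tricarboxylic acid cycle and 0.04 for the respiratory chain, where Uqcrc1 stood at 0.25 ± 0.11, or -0.03 within slide 3. Proteasome genes had a median of 0.03, and the catalytic subunit gene Psmb5 had no overlap between the diets at a small difference of 0.18 ± 0.07.

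**Figure D5:**
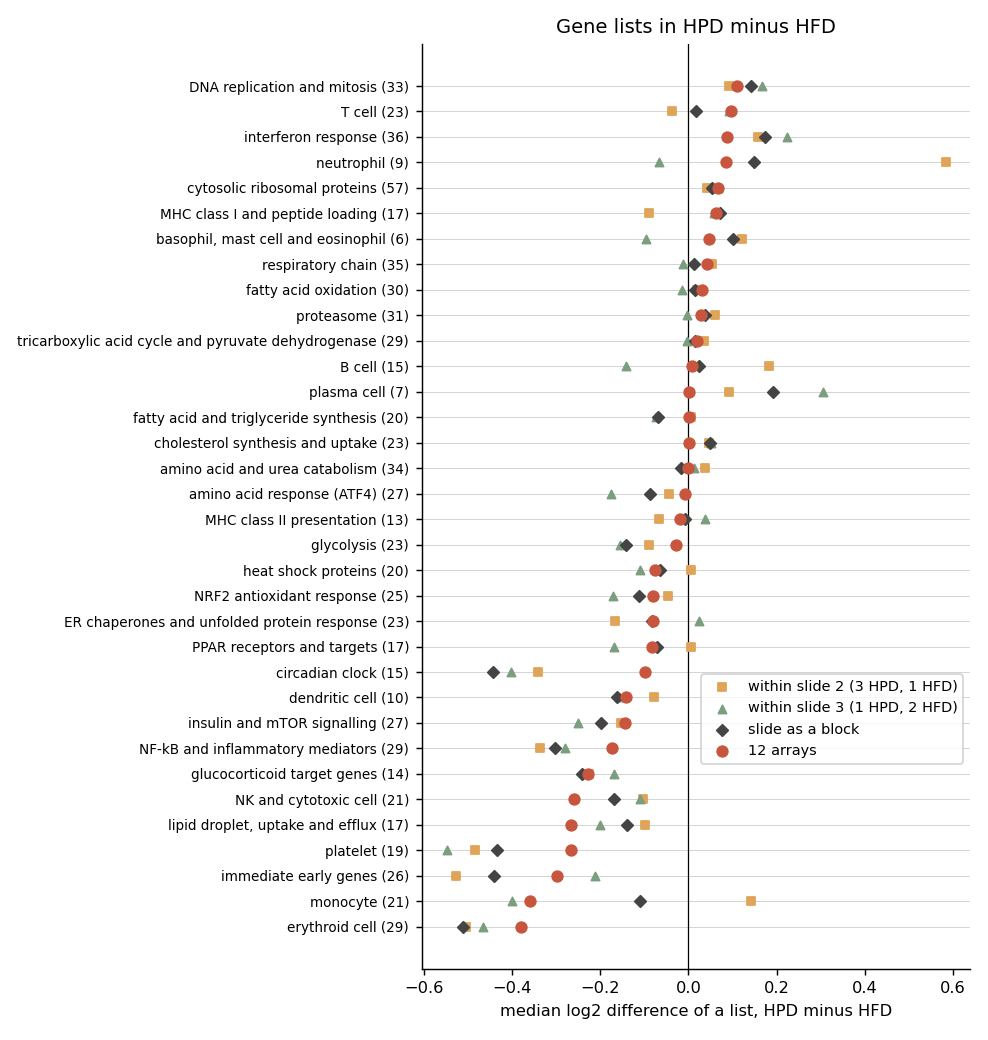
Median log2 difference HPD minus HFD over the measured genes of each of 34 lists (x axis; number of genes in brackets), from all 12 arrays (circles), with slide as a block (diamonds), within slide 2 (squares) and within slide 3 (triangles). Erythroid, immediate early, platelet and NF-kB lists lie left of 0 in all 4 values, interferon and cell cycle lists right of 0, and the monocyte list lies right of 0 within slide 2 alone.

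Of the 48 genes without overlap between the diets, a share near that of chance, 23 carried a symbol, 17 with higher and 6 with lower values in HPD. Beside those already given, the higher ones named by rule were Btg1b, Nol12 of the nucleolus, Dctpp1, which cleanses the nucleotide pool, Lsm4 of the spliceosome and Cmc1 of cytochrome oxidase assembly, with differences of 0.44 ± 0.11, 0.29 ± 0.09, 0.41 ± 0.13, 0.18 ± 0.08 and 0.16 ± 0.07. The gaps between the diets were narrow, from 0.02 for Cmc1 to 0.09 for Btg1b, which stood at 0.09 after normexp. The lower ones were Trim65, a ubiquitin ligase (-0.67 ± 0.18, but -0.06 after normexp, and well above background on 4 HPD and 6 HFD arrays), Nxf1, the main exporter of messenger RNA (-0.30 ± 0.09), Cers6, a ceramide synthase (-0.71 ± 0.22, or -0.25 after normexp), and the ribosome-associated Naca (-0.11 ± 0.07). Cers6 ranged from -1.26 to -0.04 with a median of -0.30 in HPD rats, against -0.01 to 0.93 with a median of 0.17 in HFD rats, with HPD replicate 4 far below the rest. Nxf1 ranged from -0.27 to 0.14 with a median of -0.03 in HPD rats, against 0.18 to 0.36 with a median of 0.24 in HFD rats, and its groups were separated by a narrow gap. The other pair of genes ranked by size alone, Cyp2d5 (Cyp2d10 in the files) at -1.91 ± 0.56 and the ribosomal pseudogene Rpl6-ps11 at -1.82 ± 0.77, belong to families of near-identical sequences, so their probes may read more than 1 gene. Cyp2d5 was well above background on 3 HPD and 6 HFD arrays and stood at -0.35 after normexp. Of the 32 panel genes, 5 did not reach the filter. Of the 27 tested, 19 had a lower mean in HPD (45.1% over all genes) and 8 a higher one. Cpt1a, Abca1 and Ccl2, 3 of the lower ones, had an unadjusted p under 0.05 (2.21% lower at that level over all genes).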

How the data were processed

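Peripheral blood mononuclear cell RNA of 18 rats was hybridised to 2-colour Agilent arrays, each rat in Cy5 against a pool in Cy3, with no dye swap. The scanner's intensity values were deposited by the authors as Agilent Feature Extraction 10.5.1.1 processed signals (version per the submitters' processing notes), that is, background-subtracted and dye-normalized per the file headers. The authors' deposited table of log2 values holds 21530 rows with every column's median at 8.40. Its scale and centring are not stated, and it followed the scanner log2 ratio (Cy5 over Cy3) with r = 0.91 and a slope of 0.72 over probes, which are not independent replicates.

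The log2 ratio of the processed signals was taken per spot without control spots, outlier spots were set to missing, and spots of a probe were averaged. Of 41012 probes, 21640 were matched to RefSeq names. A probe was kept if Cy5 was well above background on at least 6 of the 12 arrays (23858 probes), and the brightest probe stood for its gene (20337 genes, 75 with a missing array). The model was fitted with limma 3.58.1 in R 4.3.3 on the 12 arrays, with Benjamini-Hochberg adjustment at 0.05. It was also run on simulated data with independent noise, which leaves its behaviour under slide effects or correlated arrays untested. Genes were named by rule: the 10 smallest p in each direction, the 5 largest differences in each direction at p under 0.05, 3 genes per list, the panel, and up to 10 genes per direction with the widest gap between diets. The members, gene lists and panel were chosen with earlier results of these data known. Nothing in the labels pairs the rats, and rats that share a number correlated between -0.33 and 0.25 in their deviations. Each sample is 1 rat, and the number of arrays limits the precision. Alternatives changed the background correction, scaling, filter, probes, slide handling, array weights, the array with conflicting labels, and each array in turn. A few genes of the lists and panel are not reported here.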

Additional observations from a re-analysis of the deposited data

Results flagged for a closer look

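Within each diet, a rat was marked where its gap to the nearest other rat exceeded Dixon's 95% critical value for 6 samples. Over 282 groups of values this gave 14 marks, against 14.1 expected when chance marks about 1 in 20. HPD replicates 4 and 7 had 3 marks each.

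HPD replicate 4 stood above the other HPD rats for Glycam1 at 1.23, and below them for Cers6 at -1.26 and Lypd8l1 at -1.28. HPD replicate 7, the array with conflicting labels, stood below its group for Slc27a2 at -4.47, and above it for the medians of the fatty acid and triglyceride synthesis list at 0.11 and the fatty acid oxidation list at 0.15. HPD replicate 2 stood apart for Nfil3 at 0.55 and for the glycolysis list's median at 0.081, and HPD replicate 3 for Glud1 at 0.15.

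Among HFD rats, replicate 4 stood below the others for Ccl2 at -1.34 and Dctpp1 at -0.72, replicate 5 for Ddit4 at -0.86 and replicate 3 for Slc39a1 at -0.99. HFD replicate 1 stood above them for Dnajc3 at 0.59.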

How the results depend on the processing

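No gene had an adjusted p under 0.05 in limma under any of 31 alternatives, of which 12 left out 1 array each (1 of these, without HPD replicate 7, is the same fit as leaving out the array with conflicting labels, so it is counted in both kinds), and the lowest adjusted p among those 12 was 0.076, without HPD replicate 3. The number of genes at an unadjusted p under 0.05, 1213 in the reported fit, was 2016 with no filter on dim probes, 615 with all 18 arrays in the fit, 690 within slide 3 and 571 without slide 1. Leaving out 1 array gave 737 (without HFD replicate 1) to 1685 (without HFD replicate 4). The 48 genes without overlap became 30 or 26 after normexp with loess, 87 with Cy5 alone, 112 with no filter, 101 without slide 1, 92 without the array with conflicting labels, and 55 to 159 with 1 array left out, where fewer rats make overlap rarer. Overlap was not counted in fits with blocks, weights, all 18 arrays or single slides. Replicate numbers 1 to 5 as a block gave 0 called genes and 973 at an unadjusted p under 0.05. Of 5 HPD rats, 1 correlated best with the HFD rat of its own number. No pairing by number was seen, though so few rats cannot exclude one. Of 34 list medians, 24 kept their sign in each fit with 1 array left out and 13 under each of the other 19 alternatives. Of the 107 genes tested that are named, 102 and 82 did. With the array with conflicting labels counted as HFD, some differences shrank, such as those of Srebf2 (from -0.30 to -0.10), Mtor (-0.26 to -0.14) and Cyp2d5 (-1.91 to -0.97). Others grew in size, such as that of Plin2 (-0.32 to -0.46). Among lists with a median of at least 0.05 in size, those of neutrophils, the circadian clock and heat shock proteins changed sign under another background correction or in the deposited table. HFD replicates 1 and 6 averaged as 1 sample left 867 genes at an unadjusted p under 0.05. Cxcl1, Vcan, Tnk1, Cyp2d5 and Trim65 were well above background on only some arrays of a diet, so their sizes rest on dim signals.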
